A study of Mus musculus with 8 samples.

Results

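The 4 libraries described here hold the RNA of fully grown oocytes at the germinal vesicle (GV) stage from Zp3-Cre mice, the control genotype of a study of CNOT7 and CNOT8 in the oocyte. They were chosen by genotype and stage from the labels, as 4 of the 8 libraries of the series, and the libraries of the other genotype were not used. Females of C57BL/6J background, 4 weeks of age, were given 5 IU of pregnant mare serum gonadotropin (PMSG), which stimulates follicles to grow, and oocytes were collected 48 h later. The Zp3-Cre mice carry a Cre recombinase transgene driven by the promoter of Zp3, a gene switched on in the growing oocyte. Each library was made from 100 pooled oocytes, so differences between single oocytes are averaged within it. No source used here says whether the 4 pools came from separate animals, so the spread between libraries may be technical.

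A fully grown GV oocyte is arrested in the prophase of the first meiotic division and has largely ceased transcription. The cells then complete meiosis, are fertilized and enter the first cleavage on the mRNA and protein laid down during growth. Many of these mRNAs are kept with short poly(A) tails and little translation until maturation. One route to later activation runs through the cytoplasmic polyadenylation element (CPE), a U-rich sequence in the 3′ untranslated region (3′UTR) that binds CPEB1 and acts with the polyadenylation signal downstream. The CCR4-NOT complex shortens poly(A) tails and starts the clearance of maternal mRNA, and BTG4 brings it to its targets during maturation.

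Elements of the CPE kind are shown for some of the stored mRNAs below that hold one, so that the sites can be read beside the levels. They were located in the longest annotated 3′UTR of each gene (GENCODE vM21, build GRCm38). Other abundant mRNAs lacked the CPE letters TTTTAT there, among them Gm15698, Nlrp14, Ldhb, Bcl2l10, Oosp1, Padi6, Fbxw24, Gm813, Zp3 and Fbxw15. Sequences are written in the sense of the mRNA, 5′ to 3′, with T for U, and capitals mark the CPE letters TTTTAT and, where one lies in the window downstream, the polyadenylation signal AATAAA or ATTAAA. In the windows of Bub1b, Gdf9, E330034G19Rik and Obox2 both elements were present, with 0, 10, 4 and 17 bases between them. H1foo, Apela, Btg4, Wee2, Khdc1b, Ccnb1 and Plat are given with the CPE letters alone. In the windows of Wee2 and Khdc1b the signal letters lie upstream of TTTTAT and not downstream. The sites of Ccnb1 and Plat lie 431 and 319 bases from the end of the 3′UTR.
Bub1b, a spindle checkpoint kinase, chr2:118641556-118641585, plus strand: cactgtgtaTTTTATAATAAAatagttttt
Gdf9, an oocyte growth factor, chr11:53437862-53437891, plus strand: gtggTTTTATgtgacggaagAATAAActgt
E330034G19Rik, chr14:24309922-24309951, plus strand: gagaatgTTTTATgaatAATAAActtttgt
Obox2, an oocyte homeobox gene, chr7:15398490-15398519, plus strand: TTTTATtgttagagtatatgttcATTAAAt
H1foo, the oocyte linker histone, chr6:115950157-115950186, plus strand: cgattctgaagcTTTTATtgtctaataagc
Apela, a small secreted peptide, chr8:65028454-65028483, minus strand: acacatgaatgaTTTTATtgcacattatta
Btg4, the CCR4-NOT adaptor, chr9:51119797-51119826, plus strand: agataaatccctTTTTATgtctttttaaaa
Wee2, a kinase that holds CDK1 inactive, chr6:40466784-40466813, plus strand: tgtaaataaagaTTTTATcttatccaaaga
Khdc1b, a KH-domain gene of the oocyte, chr1:21386344-21386373, plus strand: tctttggaacattaaagtttgTTTTATtta
Ccnb1, cyclin B1, chr13:100779069-100779098, minus strand: tatatgggttcaTTTTATcaacagtattcc
Plat, tissue plasminogen activator, chr8:22782508-22782537, plus strand: acaagaatgtgtTTTTATagttacacaggg

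The libraries held 44092144, 22040207, 15588247 and 14943671 counted reads in replicates 1 to 4. A gene was counted as detected at 0.2 CPM (counts per 1000000 counted reads) or more in at least 2 libraries, and 16134 of 46078 genes in the table met this, 13692 of them protein-coding. The latter were 63.6% of the 21519 protein-coding genes in the table. Counts of detected members of the lists below are to be read beside that share. The lists were chosen with earlier results of these data known, so such contrasts are not independent of the data. A count of 3, used here as the floor, corresponded to 0.068 CPM in replicate 1 and to 0.136, 0.192 and 0.201 CPM in the others. Replicate 1 stood apart from the other 3 libraries. Its 18S ribosomal RNA (Rn18s-rs5) made 0.0504% of counts against 4.26%, 2.75% and 5.75%, and its 7SK RNA (Rn7sk), a nuclear noncoding RNA, made 0.154% against 0.751%, 0.899% and 0.674%. Results that turn on replicate 1 are therefore given with and without it.

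Levels of different genes were compared in TPM, the counts per kilobase of the longest annotated transcript scaled to a sum of 1000000 in every library over the detected protein-coding genes. Shares of mRNA below are shares of that sum. All 5 genes used to check the label were abundant. Gdf9, which signals to the granulosa cells, was at 5484, 7514, 6831 and 6865 TPM in replicates 1 to 4. Zp3, a zona pellucida glycoprotein, was at 2502, 3804, 3856 and 3982 TPM. The lowest value was that of replicate 1 for both genes. Bmp15, the partner of Gdf9, was at 3518, 2699, 2913 and 2771 TPM. Nlrp5, a subunit of the subcortical maternal complex, was at 2147, 1279, 1303 and 1361 TPM, with replicate 1 the highest. Mos, the kinase that starts the MAP kinase cascade of meiosis, was at 499, 1491, 1449 and 1276 TPM, which made it the marker with the widest spread relative to its mean (1179 TPM, or 1405 TPM without replicate 1).

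Few genes accounted for much of the stored mRNA. The 119 protein-coding genes at 1000 TPM or more were 0.869% of those detected and held 27.2% ± 0.592 of mRNA (SD, n = 4). The 2027 genes from 100 to under 1000 TPM held 49.97% ± 0.445. The 5514 genes from 10 to under 100 TPM were the largest class by number and held 21.1% ± 0.269. The 3875 genes from 1 to under 10 TPM were 28.3% of detected genes and held 1.62% ± 0.0371 of mRNA, and the 2157 genes below 1 TPM were 15.8% and held 0.102%. Thus 563 genes made 50% of mRNA and 4076 genes made 90%. The median detected protein-coding gene was at 14.3 TPM. Transcripts of the most abundant class were short, with a median length of 1703 bases against 2745 and 3545.5 bases in the next classes down, and this comparison is not independent of the length scaling of TPM. The plot of genes and mRNA by level shows the same counts beside the shares.

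**Figure D1:**
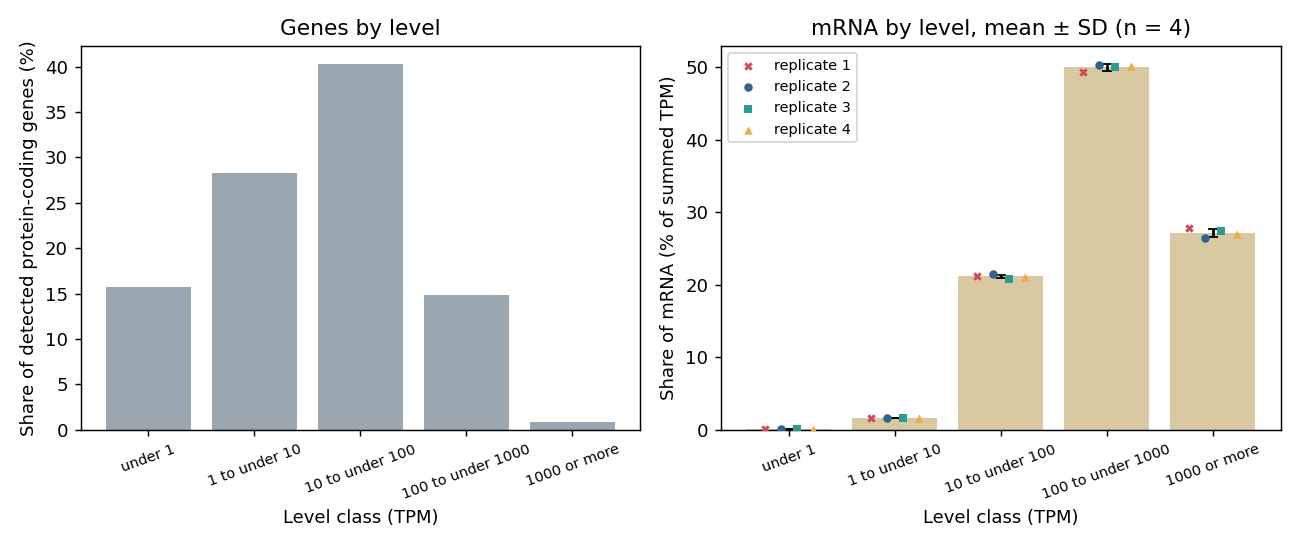
Detected protein-coding genes by level class (left, % of 13692 genes) and the share of mRNA each class held (right, % of summed TPM; bars are means with the SD of 4 libraries, points are libraries). The class of 1000 TPM or more was 0.869% of genes and 27.2% of mRNA, and the library points of each class lie close together.

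The most abundant mRNAs were mainly those of genes known for expression in the oocyte, with Ldhb and Skp1a among the more widely used genes beside them. H1foo (ENSMUSG00000042279, chr6:115944938-115950236), the linker histone of the oocyte, had the highest mean, with 5873, 8425, 8389 and 8446 TPM in replicates 1 to 4, or 7783 TPM on average and 8420 TPM without replicate 1. Gm15698 (ENSMUSG00000057534, chr11:88964658-88966931), a predicted gene, followed at 8126, 7372, 7710 and 7384 TPM. Apela (ENSMUSG00000079042, chr8:65028417-65037336) was at 8318, 6637, 6621 and 6690 TPM. The order of these 3 genes was not the same in every library, since replicate 1 had Apela highest and H1foo lowest of them. Exons of another gene on the same strand cover 29.6% of the annotated exon bases of Apela, so its count is less certain.

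Below them were Nlrp14 (5975 ± 1043 TPM), a NOD-like receptor gene of the oocyte, and Ldhb (5916 ± 326 TPM), a lactate dehydrogenase subunit. Bcl2l10, an anti-apoptotic BCL2 relative, was at 5730 ± 826 TPM. Skp1a, the adaptor of SCF ubiquitin ligases, was at 5258 ± 305 TPM. The SD of Nlrp14 and of Bcl2l10 over 4 libraries exceeded the gaps to their neighbours, so their places in this order were not resolved, while Ldhb was above Skp1a in all 4 libraries. Oosp1, an oocyte secreted protein, was at 5152 ± 481 TPM, and Obox2, an oocyte homeobox gene, at 4879 ± 626 TPM. Rfpl4, an oocyte gene of the ubiquitin pathway, was at 4591 ± 543 TPM and Padi6, a component of the cytoplasmic lattices, at 4555 ± 319 TPM. Btg4 was the most even of the 20 genes, with 4526, 4488, 4633 and 4476 TPM. Hist1h1a, a linker histone gene, was the least even, with 2191 TPM in replicate 1 and 5326, 5769 and 4880 TPM in the others. The remaining genes of the top 20 were Khdc1b (4328 ± 694 TPM), Fbxw24 and Fbxw15 of the F-box family (4327 ± 726 and 3474 ± 461 TPM), E330034G19Rik (3965 ± 150 TPM), Gm813 (3795 ± 278 TPM), Gdf9 and Zp3. Of the 20 genes that rank highest in each library, 17 were common to all 4 libraries and 20 to replicates 2, 3 and 4. For the highest 100 these counts were 80 and 90.

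**Figure D2:**
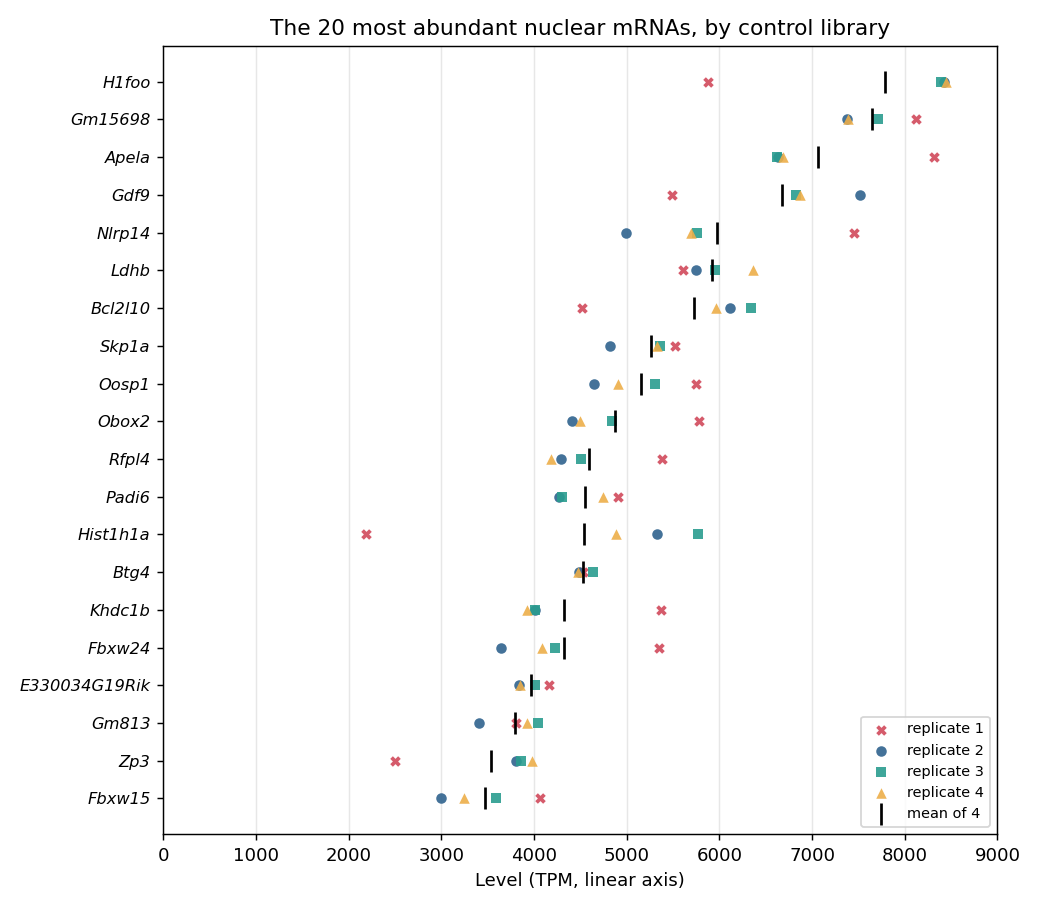
Level in TPM (linear axis) of the 20 nuclear mRNAs with the highest mean, one row a gene, with a point for each library and a bar at the mean of 4. Replicates 2, 3 and 4 lie close together for H1foo (8389 to 8446 TPM) while replicate 1 is at 5873 TPM, and the 4 values of Btg4 span 4476 to 4633 TPM.

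Some of the highest 100 genes lay near each other in the genome. With neighbours defined as genes starting within 500000 bases, 30 nuclear genes of the 100 fell into 9 clusters, and 2 further genes were mitochondrial. Other detected genes were not grouped by this rule, so whether 30 of 100 is unusual was not tested. Some clusters, such as that of Omt2b, Ooep and Eef1a1, were not of related genes. The largest cluster held 7 F-box genes (Fbxw14, Fbxw15, Fbxw16, Fbxw18, Fbxw19, Fbxw21 and Fbxw24) at chr9:109139447-109702700 and made 1.499% of mRNA. The Oosp1, Oosp2 and Oosp3 cluster at chr19:11647279-11711874 made 0.968%, and Obox1, Obox2 and Obox5 at chr7:15388721-15759800 made 0.929%. Oog3 and its relatives Gm13084, Gm13023 and C87977 at chr4:143789352-144213318 made 0.851%. The cluster of Oas1c, Oas1d and Oas1e on chromosome 5, members of the oligoadenylate synthetase family, made 0.648%. Near-identical copies within such clusters can share reads, so the values of single members are less certain than the sums.

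The zona pellucida and fertilization group held 1.97% ± 0.0890 of mRNA, and all 12 matched members were detected, 7 of them at 1000 TPM or more, against 119 of the 13692 protein-coding genes detected. The members were chosen with earlier results of these data known, so that contrast is not independent of their levels. The zona pellucida is the glycoprotein coat that binds sperm. As a share of counts with no length correction the group held 1.003%. Zp2 was at 4009, 2610, 2861 and 2942 TPM, and Zp1 was at 1017, 1118, 1009 and 1139 TPM. Zp2 exceeded Zp1 in every library, by 2.92-fold ± 0.708. Zp3 exceeded Zp2 in replicates 2, 3 and 4 but not in replicate 1, so their order was not resolved. Izumo1r (Juno), the egg receptor of the sperm protein IZUMO1, was at 283, 563, 536 and 550 TPM, and Astl (ovastacin), the protease that cleaves ZP2 after fertilization, was at 581 ± 102 TPM. The tetraspanin Cd9, needed for sperm-egg fusion, was lower, at 66.3 TPM, and its relative Cd81 was at 2.98 TPM.

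The subcortical maternal complex, a maternal protein assembly needed for early cleavage, held 1.54% ± 0.104 of mRNA. Padi6 led the group in all 4 libraries, followed by Tle6 (2624 TPM), Nlrp4f (2489 TPM) and Ooep (2140 TPM). Khdc3 was the exception, at 25.2, 17.8, 23.1 and 19.7 TPM, and exons of another gene on the same strand cover 38.5% of its annotated exon bases, so its count is less certain. The NLRP genes of the oocyte held 1.41% ± 0.257, with all 12 members detected and Nlrp14 leading. Nlrp4g (760 TPM) is annotated as a transcribed pseudogene, so this share, which is over protein-coding genes, leaves it out. Every one of the 12 was highest in replicate 1, with a median log2 ratio to the other libraries of 0.41, and the share without replicate 1 was 1.29%. By TPM, 41.3% of all detected protein-coding genes and 52.8% of those at 100 TPM or more were highest in replicate 1.

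The growth factor and junction group held 1.08% ± 0.0700. Gdf9 was above Bmp15 in all 4 libraries, by 2.29-fold ± 0.522, and the ratio was lowest in replicate 1 at 1.56. Gja4 (connexin 37), the gap junction protein on the oocyte side, was at 318, 816, 675 and 691 TPM, with replicate 1 below the others. Tgfb2, a TGF-β ligand, was at 239 ± 16.6 TPM, Kit, the receptor for KIT ligand, at 86.6 TPM, Bmp6, a BMP ligand, at 82.8 TPM and Fgf8, a cumulus-directed ligand, at 63.8 TPM. The IGF receptor Igf1r was at 9.67 TPM, below the median detected gene.

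Obox2, Obox5 and Obox1 (4879, 2371 and 2039 TPM) led the 14 transcription factors of the oocyte list, which held 1.05% ± 0.120 of mRNA. Nobox, a factor needed for early follicle growth, followed at 705, 628, 661 and 637 TPM. Figla, which activates the zona genes, was at 56.0, 96.9, 77.7 and 75.4 TPM, and Lhx8 was at 131 TPM. Tbpl2, the oocyte form of the TATA-binding protein, was at 60.3, 38.6, 55.4 and 39.1 TPM. By TPM it exceeded Tbp in every library, by 1.71-fold ± 0.433. That order depends on the lengths used, 1379 bases for Tbpl2 and 12794 bases for Tbp. By mean CPM, with no length scaling, Tbpl2 was the lower, at 22.3 against 121.5. Sohlh1, a factor of early oocytes, was near the limit at 0.373 TPM. Of the pluripotency list, Klf17 (762 TPM) and Pou5f1 (468 TPM) were abundant while Nanog, Myc and Klf5 were at or below 3 counts in every library.

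The chromatin and imprint group held 1.98% ± 0.114, with all 28 members detected. After H1foo, the highest were Dppa3 (3362, 3249, 3454 and 3445 TPM), which protects the maternal genome from demethylation, and Dnmt1 (2064, 2128, 1829 and 2150 TPM), the maintenance DNA methyltransferase. The nucleoplasmin Npm2 was at 1594 ± 98.9 TPM and the imprint-protecting zinc finger gene Zfp57 at 1189 ± 81.5 TPM. Dnmt1 exceeded the de novo enzyme Dnmt3a 34.7-fold ± 3.35, and Dnmt3l, its cofactor, exceeded Dnmt3b 11.2-fold ± 1.42. Tet3, the oxidase of methylated cytosine that acts in the zygote, was at 138 TPM and exceeded Tet1 96.4-fold ± 21.9.

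**Figure D3:**
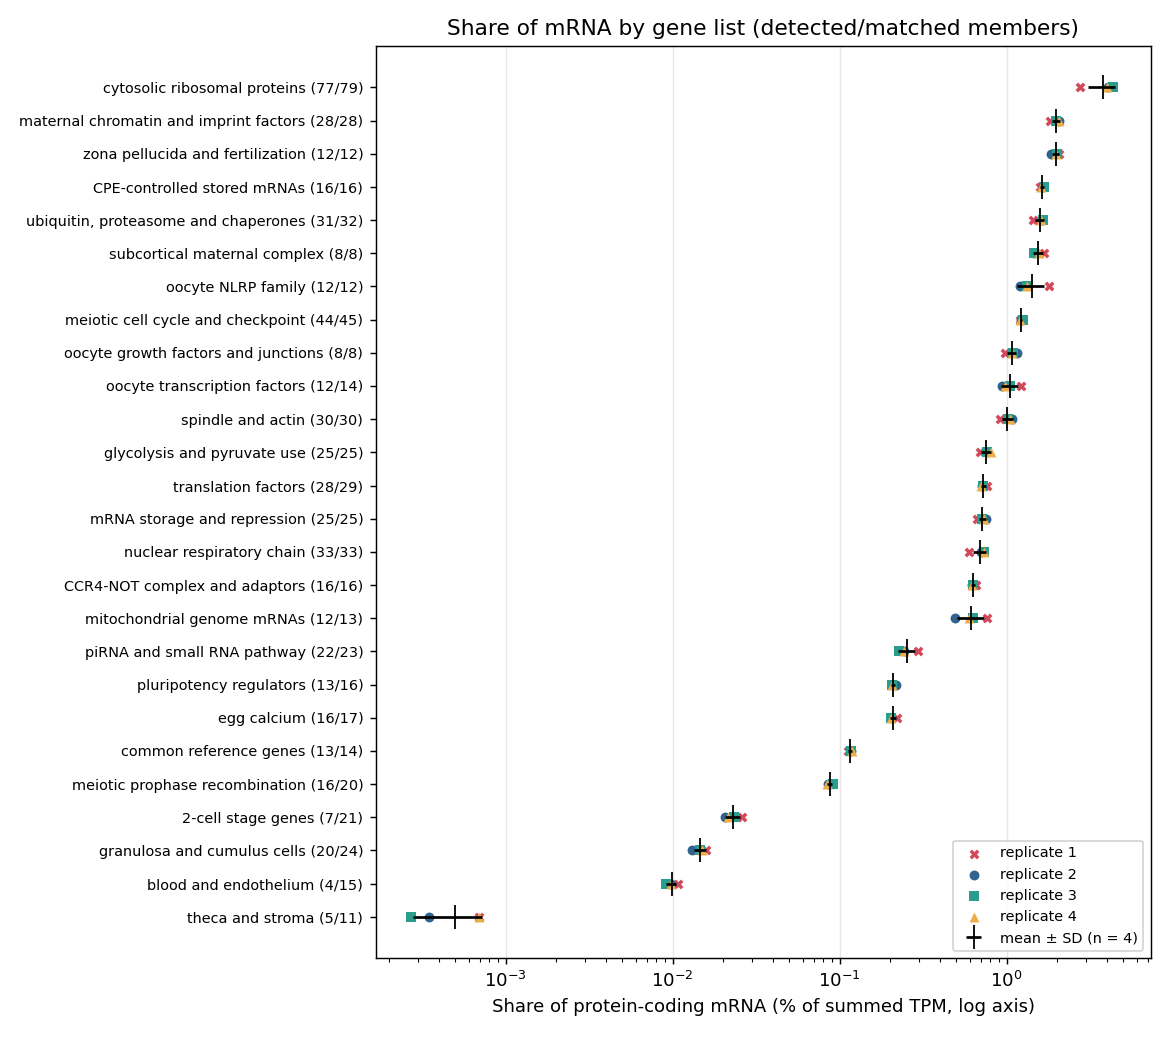
Share of protein-coding mRNA (% of summed TPM, log axis) for each of 26 gene lists, with detected and matched members in parentheses, points for the 4 libraries and the mean ± SD in black. Per length, cytosolic ribosomal proteins held the largest share (3.78%) and had replicate 1 lowest, while by counts with no length correction they held 1.43% and the NLRP list 1.73%, and markers of theca and stroma held 0.000501%.

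Genes of mRNA storage and repression held 0.716% ± 0.0369 of mRNA, and 25 of 25 were detected, against 63.6% of protein-coding genes in the table. Zar1l and Zar1, RNA-binding proteins that hold maternal mRNA, were at 1062, 1640, 1682 and 1540 TPM and at 572, 764, 798 and 764 TPM, with replicate 1 lowest for both. Lsm14b, a repressor found in oocyte ribonucleoprotein domains, was at 1018, 1140, 958 and 1096 TPM. Dazl, an RNA-binding protein of germ cells, was at 782, 772, 798 and 744 TPM. The 4E binding partner Eif4enif1 (4E-T) was at 301 ± 55.2 TPM. Cpeb1, which binds the CPE, was at 363, 273, 210 and 275 TPM, with replicate 1 highest and replicate 3 lowest. The related Cpeb4, Cpeb3 and Cpeb2 were at 35.8, 26.2 and 0.919 TPM. Ybx2 (MSY2), a mRNA-binding protein of germ cells, was at 119 ± 10.9 TPM, below Ybx3 (468 TPM) and Ybx1 (314 TPM).

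Several of these genes have a close relative, and one form was well above the other in every library. Pabpc1l, the embryonic poly(A)-binding protein, was at 149, 213, 191 and 220 TPM against 14.6, 7.08, 11.7 and 7.89 TPM for Pabpc1. The ratio had a mean of 21.1 and ran from 10.2 in replicate 1 to 30.05 in replicate 2. Eif4e1b exceeded Eif4e, the cap-binding protein, 3.46-fold ± 0.188, and Lsm14b exceeded Lsm14a 3.39-fold ± 0.177. Patl2 exceeded Patl1 7.80-fold ± 2.24. The terminal uridylyltransferase Zcchc6 (TUT7) exceeded Zcchc11 (TUT4) 19.7-fold ± 4.22. Over 31 pairs of related genes compared in this way, the first gene was higher by TPM in all 4 libraries in 29 pairs. Measuring length over all exons of a gene in place of the longest transcript changed the direction of the mean ratio in 0 pairs. That length is never below the longest transcript, so this setting does not test a shorter one. By mean CPM, with no length scaling, some pairs had the other order, among them Fbxo5 and Fbxo43 (126 and 244 CPM). The pairs were picked with these levels known, and in an exact sign-flip permutation test over 4 libraries 2 of 16 sign patterns are always at least as extreme as the data, so that it cannot reach a two-sided p of 0.05 and no test is given.

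All 16 genes of the CCR4-NOT complex and its adaptors were detected, and they held 0.632% ± 0.0163 of mRNA, most of it in Btg4. Among the deadenylase subunits, Cnot7 was at 696, 637, 630 and 637 TPM and its close relative Cnot8 was at 242, 214, 203 and 205 TPM. Cnot7 exceeded Cnot8 3.01-fold ± 0.110, and the ratio ran from 2.87 to 3.10. Of the other deadenylase pair, Cnot6l was at 155, 106, 93.7 and 106 TPM and Cnot6 at 31.7, 19.0, 18.5 and 20.6 TPM. Cnot6l exceeded Cnot6 5.18-fold ± 0.299, again in all 4 libraries.

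The scaffold Cnot1 was at 137, 94.5, 90.04 and 100.6 TPM, and the other scaffold and regulatory subunits lay between 51.3 TPM (Cnot3) and 209 TPM (Cnot2). Cnot9, listed under its older symbol Rqcd1, was at 73.5 TPM, Cnot10 at 54.6 TPM and Cnot11 at 109 TPM. Cnot4, a ubiquitin ligase that associates with the complex, was at 72.6 TPM. Apart from Btg4, the adaptors were low, with Tob2 at 58.6 TPM, Btg2 at 22.9 TPM, Btg1 at 12.05 TPM and Tob1 at 11.2 TPM. Btg4 exceeded Tob2, the next adaptor, 77.9-fold ± 7.84. Cnot7 and Cnot8 are the genes deleted in the other genotype of the series, which was not used here, and in these controls both were counted in every library.

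**Figure D4:**
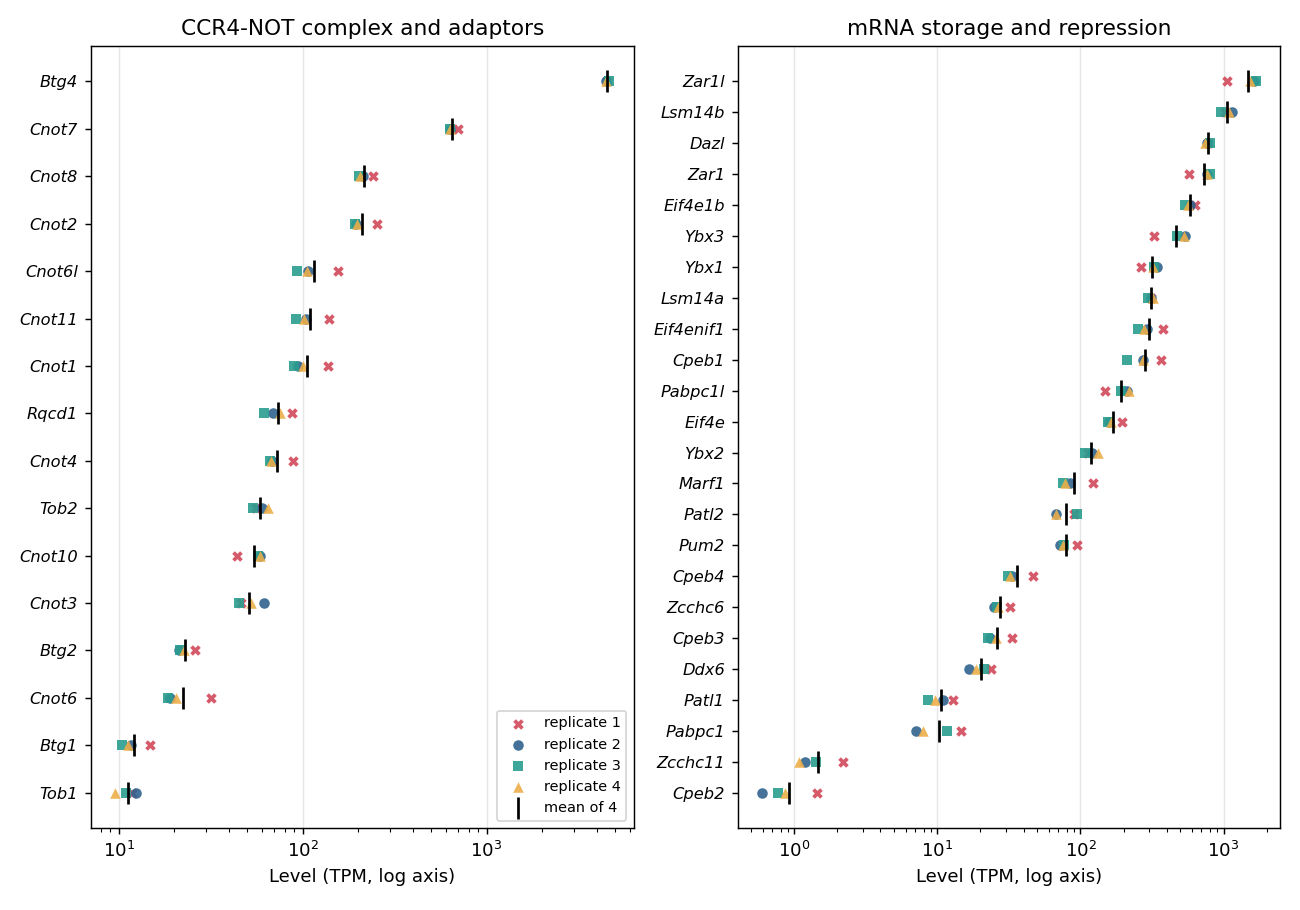
Level in TPM (log axes) of the 16 CCR4-NOT genes (left) and 24 of the 25 storage and repression genes (right), with a point for each library and a bar at the mean of 4. Btg4 lies at 4531 TPM and Cnot7 at 650 TPM, and the libraries of a gene lie much closer together than the genes of a list.

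The group of stored mRNAs listed here as CPE-controlled held 1.63% ± 0.0423, and 15 of its 16 genes were at 100 TPM or more, against 15.7% of all detected protein-coding genes. Its members were chosen with earlier results of these data known, so that contrast is not independent of their levels. This group includes Btg4 and Cnot7. Plat was at 2530, 3095, 2998 and 2972 TPM. Ccnb1, the regulatory subunit of CDK1, was at 1972, 1656, 1840 and 1596 TPM, and Bub1b at 1567, 1467, 1459 and 1377 TPM. Wee2 was at 1251, 1040, 1162 and 1112 TPM. The decapping genes Dcp1a and Dcp2 were at 621 ± 43.1 and 109 ± 12.3 TPM. The origin recognition gene Orc6 was at 408 TPM. Mastl (Greatwall kinase) was at 252 TPM, Fbxo43 (EMI2), the inhibitor that holds the metaphase II arrest, at 181 TPM and the spindle factor Tpx2 at 170 TPM. The lowest was Il7, a cytokine gene, at 66.2 TPM. For Mos the annotated 3′UTR of 126 bases held 0 copies of TTTTAT. For Fbxo43 the study's reporters with and without the CPE did not differ significantly, so control through the CPE is not equally established for all members.

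The letters TTTTAT were common in 3′UTRs at every level. They were found in the longest annotated 3′UTR of 57.3% of 13485 genes with at least 50 bases of it, searched on the mRNA strand only. The share was 55.04% below 1 TPM, 54.8%, 60.7% and 55.9% in the next classes, and 41.3% (45 of 109 genes) at 1000 TPM or more. The 3′UTRs of this top class were short, with a median of 510 bases against 1003 bases in the class from 100 to under 1000 TPM and 1421 bases from 10 to under 100 TPM. Among 3′UTRs of 500 to 1500 bases the order was another one, with 46.8%, 45.01%, 49.6%, 53.1% and 60.0% from the lowest class to the highest, the last over 50 genes. Copies per kilobase of 3′UTR likewise were 0.803, 0.869, 0.982, 1.05 and 1.28. In the last 100 bases, where the signal lies, TTTTAT was present in 13.1%, 13.4%, 14.6%, 16.7% and 22.02% of genes. These are descriptions of annotated sequence, and base composition was not separated from the element.

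The meiotic cell cycle list held 1.22% ± 0.0187, and 44 of 45 genes were detected. Behind Ccnb1, Bub1b, Mos and Wee2 came the securin Pttg1 at 1142, 983, 1098 and 1088 TPM. Wee2 exceeded the somatic kinase Wee1 125-fold ± 33.0. Aurkc, the germ cell Aurora kinase, exceeded Aurka 2.01-fold ± 0.398, and Aurka exceeded Aurkb 11.2-fold ± 1.45. Ccnb1 exceeded Ccnb2 8.42-fold ± 1.56. The catalytic subunit Cdk1 was at 113, 104, 111 and 106 TPM, below its cyclin. By TPM, Fbxo5 (EMI1) and Fbxo43 differed by 1.07-fold ± 0.0442, with Fbxo5 the higher in 4 of 4 libraries. By mean CPM, with no length scaling, Fbxo43 was the higher (244 against 126), so their order was not resolved. Gpr3, the receptor that keeps cAMP high in the arrested oocyte, was at 29.0, 44.5, 35.4 and 35.3 TPM, and the phosphodiesterase Pde3a was at 53.6 TPM. Rec8, a meiotic cohesin subunit, was at or below 3 counts in every library.

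Genes of meiotic prophase and recombination, which act before birth, held 0.0870% of mRNA. Their median was 4.10 TPM against 14.3 TPM over all detected protein-coding genes. Spo11, which makes the double-strand breaks, Stra8, the meiotic entry factor, and Syce3 and Rec8 were at or below 3 counts in every library. Syce2, a synaptonemal complex gene, stood out at 568, 580, 594 and 535 TPM, while Sycp3 was at 42.3 TPM and Dmc1 at 7.84 TPM. In the small RNA list, Gtsf1, Tdrd1 and Tdrd5 of the piRNA pathway led at 846, 384 and 348 TPM. Dicer1 followed at 291, 235, 214 and 239 TPM, while the Argonautes were low, with Ago3 at 32.7 TPM and Ago2 at 10.4 TPM.

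Spindle and actin genes held 1.01% ± 0.0746. The β-tubulin Tubb4b led with 2013, 3135, 2681 and 2776 TPM, followed by Arpc3, an Arp2/3 subunit, at 856, 1265, 1295 and 1249 TPM and Tacc3, a spindle pole factor, at 1034 TPM. Formin 2 (Fmn2), which moves the meiotic spindle, was at 35.8 TPM, and Spire1, its partner, at 200 TPM. In the calcium group, which serves the response to the sperm, Calm2 (837 TPM), a calmodulin gene, and the pump Atp2a2 (269 TPM) were among the highest. Itpr1, the receptor for inositol trisphosphate, was at 85.0, 62.8, 53.1 and 70.8 TPM and Itpr2 at 72.9, 82.1, 76.0 and 78.5 TPM. Their order was not resolved, since Itpr2 was the higher in 3 of 4 libraries. Plcz1, the phospholipase that the sperm supplies, had 0 counts in all 4 libraries.

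Cytosolic ribosomal proteins were the largest of the lists by share of TPM, at 3.78% ± 0.698 of mRNA, and 77 of 79 were detected. Their share was 2.76% in replicate 1 and 4.06%, 4.32% and 3.98% in the others, so that the share without replicate 1 was 4.12%. As a share of counts with no length correction the list held 1.43% and was not the largest, since the oocyte NLRP genes then held 1.73%. Rpl39 (1797 TPM), Rps4x (1349 TPM) and Rps29 (1320 TPM) led. Rps29 was at 465 TPM in replicate 1 and at 1477, 1743 and 1596 TPM in the others, while Rps4x was highest in replicate 1, at 1657 TPM. Of the 77 detected genes, 54 were lowest in replicate 1 by TPM, which is 70.1% against 31.7% of all detected protein-coding genes and 34.5% of those at 100 TPM or more. Rpl24 was near 0, at 0.220 TPM. Many of these genes have processed pseudogenes that are near-identical in sequence, and how reads that match several places were counted is not given in the sources used here. Translation factors held 0.725% ± 0.0243 and were led by Eef1a1 (2668 TPM), while Eef1a2, its form in muscle and brain, was at or below 3 counts.

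Glycolysis and pyruvate genes held 0.756% ± 0.0493, most of it in Ldhb. Ldhb was at 5610, 5746, 5949 and 6359 TPM, against 9.50, 17.6, 12.8 and 9.54 TPM for Ldha. Pkm, pyruvate kinase, was at 583 TPM, and Aldoa and Tpi1 at 200 and 193 TPM. The first steps were low, with Hk1 at 0.466 TPM, Hk2 at 2.50 TPM, Pfkm at 20.3 TPM and the glucose transporter Slc2a1 at 57.3 TPM. The pyruvate dehydrogenase subunit Pdha1 was at 92.7 TPM and the monocarboxylate carrier Slc16a1 at 73.8 TPM. Nuclear genes of the respiratory chain held 0.690% ± 0.0636, with 0.596% in replicate 1 and 0.707% to 0.730% in the others. Mitochondrial mRNAs held 0.616% ± 0.112, led by mt-Co1 at 3539, 2079, 2993 and 2683 TPM and mt-Cytb at 1262 TPM. Within that polycistronic genome, mt-Co3, mt-Atp6 and mt-Co2 were listed at only 7.69, 3.42 and 3.31 TPM. Nuclear copies of mitochondrial sequence can share reads, and their part in these values was not tested. With no length correction the glycolysis, respiratory chain and mitochondrial lists held 0.419%, 0.327% and 0.288% of counts.

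Genes often used as references were uneven in level. Ywhaz was at 399, 356, 351 and 350 TPM, Actb, cytoplasmic β-actin, at 105, 166, 162 and 167 TPM and Gapdh at 22.7, 38.5, 33.8 and 34.8 TPM. Both Actb and Gapdh were lowest in replicate 1. The level of Gapdh rests on a longest transcript of 3289 bases, and a shorter length would give a higher TPM. How reads that match several places were counted is not given, so the Gapdh level is less certain. Hprt was at 80.3, 77.0, 79.0 and 85.0 TPM, and Gusb was at 0.182 TPM. Chaperone and ubiquitin genes held 1.58% ± 0.0923, led by Hsp90aa1 (3370 TPM), which exceeded Hsp90ab1 12.4-fold ± 0.865. Uchl1, a ubiquitin hydrolase of oocytes and neurons, was at 1382, 3159, 2528 and 2666 TPM, and Ubb at 1504, 2365, 2399 and 2259 TPM.

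Markers of other ovarian cells made a small share of mRNA. Cyp19a1, Nr5a2, Pecam1 and Tek, given below, nonetheless lay above the median of detected protein-coding genes (14.3 TPM). Of the 24 granulosa and cumulus genes 20 were detected, against 63.6% of protein-coding genes in the table. The 24 genes summed to 0.0146% of mRNA (139 to 168 CPM per library). Of these, 2 genes, Foxl2 and Ptx3, were at or below 3 counts in every library. Fshr, the receptor for follicle-stimulating hormone, was at 1.48 TPM and Amh, anti-Müllerian hormone, at 1.24 TPM. Their sum came mostly from Cyp19a1 (aromatase) at 71.3, 59.8, 56.1 and 71.1 TPM, Nr5a2 at 32.3 TPM and Inha at 12.6 TPM. Theca and stroma genes summed to 0.000501% (3.15 to 7.49 CPM), with Acta2, Tagln, Lum and Insl3 at or below 3 counts. Of the 15 blood and endothelium genes, 4 were detected and 10 were at or below 3 counts, among them the 4 globin genes with 0 counts in every library. These globin genes have close copies, and how reads that match several places were counted is not given, so their 0 counts are less certain. The blood and endothelium list summed to 113 to 129 CPM. The detected ones were Pecam1 at 81.1, 76.8, 68.8 and 76.2 TPM, Tek at 18.2 TPM, Cd68 at 2.67 TPM and Kdr at 1.90 TPM. Genes of the 2-cell stage were mostly low, with 7 of the 21 matched genes (of 23 listed) detected and 11 at or below 3 counts. The 2 above 10 TPM were Tcstv1 (160 TPM) and Tcstv3 (57.5 TPM), which are near-identical copies. Many of the others also belong to families of close copies, so their low counts are less certain.

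Replicates 2, 3 and 4 resembled each other closely and replicate 1 less so. The Pearson correlation of log2 CPM across 16134 genes was 0.984 to 0.987 among them and 0.976 to 0.978 in the pairs with replicate 1. Spearman correlations were 0.989 to 0.991 and 0.980 to 0.981. Genes share length, base composition and library depth in these values and are not independent replicates. Of the 2371 genes at 100 CPM or more, 99.6% to 99.9% lay within 1.5-fold in the pairs without replicate 1, against 86.3% to 89.5% in the pairs with it. The biological coefficient of variation from edgeR was 0.207 over the 4 libraries and 0.0919 without replicate 1, and it lay between 0.228 and 0.231 when another library was left out. In a principal component analysis the first component held 49.6% of the variance, with replicate 1 on one side and the other 3 libraries on the other.

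Variation fell with level up to the class from 100 to under 1000 TPM. The median coefficient of variation of TPM over the 4 libraries was 43.1% below 1 TPM, 21.3% from 1 to under 10 TPM, 13.5% from 10 to under 100 TPM and 10.9% from 100 to under 1000 TPM. At 1000 TPM or more it was 11.8%. Without replicate 1 the 5 classes, from the lowest up, were at 40.6%, 16.2%, 7.55%, 4.97% and 4.99%. The steadiest genes of at least 100 CPM were Fam188a, a deubiquitinase (0.568%), Arntl, a clock factor (0.930%), Srpk1, a kinase of splicing factors (1.09%), the ribosomal gene Rpl30 (1.15%) and Fdft1, which makes squalene (1.23%). The least steady were Hist4h4 (65.0%), Hist1h4c (58.8%), Lars2, a mitochondrial leucyl-tRNA synthetase (58.3%), the polymerase subunit Polr2l (55.7%) and Hist1h2aa (54.0%). Without replicate 1 these 5 were at 22.9%, 12.9%, 15.1%, 10.4% and 16.4%. Hist4h4 was at 12.9, 206, 189 and 130 CPM and Lars2 at 25.2, 194, 237 and 178 CPM, with replicate 1 far below the others for both.

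Departures of replicate 1 by 2-fold or more ran in one direction among well-counted genes, while smaller ones ran both ways. Of 4041 protein-coding genes at 50 CPM or more, 164 were at least 2-fold below the mean of the other libraries in replicate 1 and 0 were at least 2-fold above it. In replicates 2, 3 and 4 the numbers below and above were 1 and 5, 0 and 6, and 0 and 1, but there the mean of the others includes replicate 1. Set against each other alone, which was chosen after seeing the data, replicate 2 had 1 gene at least 2-fold below, C130074G19Rik, and 0 above, and replicates 3 and 4 had 0 in either direction. The lowest log2 ratios in replicate 1 were those of Hist4h4 (-3.72), Rpl36 (-3.56) and Hist1h4c (-3.16), and the highest were those of Ticrr (0.88), Setd2 (0.85) and Amd1 (0.79). Among replicates 2, 3 and 4 alone, the lowest log2 ratios were those of C130074G19Rik (-1.07) and mt-Co1 (-0.46) in replicate 2, Gse1 (-0.64) and Tmem164 (-0.58) in replicate 3 and Slc30a3 (-0.77) and Hist4h4 (-0.61) in replicate 4. Replication-dependent histone genes, which were examined after their values were seen, were lowest in replicate 1 in 21 of 21 cases at 5 CPM or more, with a median log2 ratio of -2.62, against 38.3% of all 9619 genes at that level.

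These departures moved with transcript length and base composition. Across 16061 genes, the Spearman correlation of the log2 ratio of replicate 1 was 0.22 with length and -0.52 with GC content. The 11 protein-coding genes of at least 50 CPM under 500 bases had a median log2 ratio of -1.94 and the 334 genes of 8000 bases or more a median of 0.29. For GC content the medians were 0.20 under 40% and -0.68 at 55% or more. The 403 genes of that last class had medians of 0.29, 0.10 and 0.26 in replicates 2, 3 and 4, whose ratios include replicate 1 in the mean, and of 0.097, -0.14 and 0.034 when these 3 libraries were set against each other alone. H1foo, Mos, Zp3, Actb and 54 of the 77 detected ribosomal protein genes were lowest in replicate 1. The NLRP mRNAs and 12 of those 77 genes were highest there. Ribosomal RNA content, depth, length and GC content all differ in or move with replicate 1 and cannot be told apart with 1 such library.

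**Figure D5:**
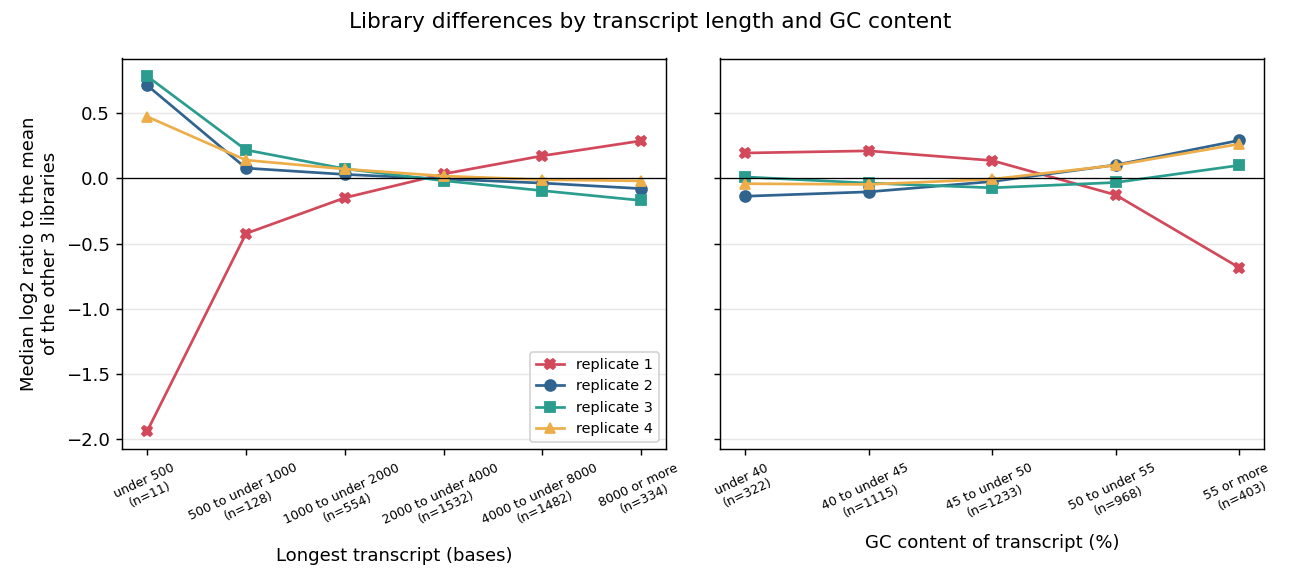
Median log2 ratio of each library to the mean of the other 3, for protein-coding genes of at least 50 CPM in classes of transcript length (left, bases) and GC content (right, %), with the number of genes in each class. Replicate 1 rises from -1.94 to 0.29 over the length classes and falls to -0.68 at the highest GC content, while the other 3 libraries, whose ratios include replicate 1 in the mean, lie closer to 0 in most classes.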

How the data were processed

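RNA of Zp3-Cre control GV oocytes was measured in 4 libraries of 100 oocytes each, prepared with 11 PCR cycles after removal of ribosomal RNA and read as pairs. The labels and the study's methods name different stranded kits. The authors deposited raw counts per gene, one column a library, with no normalization. They ran nf-core/rnaseq v2.0 with STAR 2.6.1d on GRCm38, and edgeR 3.11 is named in the submitters' processing notes. The counting rule, annotation and strand setting are not given in the sources used here, so genes that overlap another, or that have an antisense partner or a close copy, are less certain. Groups came from the labels, which also tie each column to its library. Libraries of the other genotype were not used here.

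Counts were scaled by TMM in edgeR 4.0.16 (R 4.3.3), and genes of 0.2 CPM or more in 2 libraries were kept. In replicates 3 and 4 this is about 3 counts. Log2 CPM used a prior count of 2, and the coefficient of variation an intercept-only fit. Lengths, GC content, 3′UTRs and gene types came from GENCODE vM21 (GRCm38), which held 98.0% of gene IDs. TPM used the longest transcript. Floors cover counting error only. All values describe 1 group, so no group test was run. Genes were named by rule: the 20 highest, the 5 markers, the 3 highest of each list and those at the floor, members of the storage, CCR4-NOT, zona, growth factor and CPE lists, and the genes of highest and lowest ratio or variation. Others named were chosen after their values were seen. The members and lists were chosen with earlier results of these data known. A few list members are not reported here by name. The 2-cell names Zscan4a and Dux were not matched, while Duxf3 was matched under that symbol and had at most 4 counts in a library. Library agreement and deviations were tested on simulated data. Alternatives were other scaling, filters, prior counts, gene lengths, denominators, 3′UTR choice and motif, and leaving out each library. Figures were drawn with matplotlib 3.10.9 in Python 3.11.15.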

Additional observations from a re-analysis of the deposited data

Results flagged for a closer look

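The 162 groups of 4 library values tested here were the gene list shares and part of the named genes. Some genes named in this text, such as Oas1e, were not among them. In each group, the gap between an end value and its nearest neighbour was taken as a part of the whole range. It was set against Dixon's 95% critical value for 4 samples. The gap was larger in 23 groups, where chance alone passes about 1 in 20, or 8.1 here, and the groups are not independent because they share the libraries. In 22 of the 23 the library that stood apart was replicate 1.

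Replicate 1 was the low one for the share of nuclear respiratory chain genes, at 0.596% against 0.707% to 0.730% in the other libraries. It was also low for 9 of the single genes tested, given here with the range of the other 3 libraries in parentheses. H1foo was at 5873 TPM (8389 to 8446 TPM) and Zp3 was at 2502 TPM (3804 to 3982 TPM). Ubb was at 1504 TPM (2259 to 2399 TPM) and Arpc3 was at 856 TPM (1249 to 1295 TPM). Zar1 was at 572 TPM (764 to 798 TPM) and Cox4i1 was at 318 TPM (679 to 695 TPM). Izumo1r was at 283 TPM (536 to 563 TPM) and Actb was at 105 TPM (162 to 167 TPM). Cnot10 was at 44.3 TPM (57.3 to 58.5 TPM).

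It was the high one for 12 of the genes tested, given in the same way. Apela was at 8318 TPM (6621 to 6690 TPM) and Khdc1b was at 5368 TPM (3926 to 4012 TPM). Nlrp5 was at 2147 TPM (1279 to 1361 TPM) and Klf17 was at 861 TPM (720 to 738 TPM). Cnot7 was at 696 TPM (630 to 637 TPM) and Tdrd5 was at 421 TPM (313 to 331 TPM). Ywhaz was at 399 TPM (350 to 356 TPM) and Cnot2 was at 253 TPM (192 to 197 TPM). Dcp2 was at 127 TPM (102 to 103 TPM) and Cnot4 was at 88.9 TPM (66.4 to 67.8 TPM). Cpeb4 was at 46.2 TPM (31.1 to 33.4 TPM) and Cnot6 was at 31.7 TPM (18.5 to 20.6 TPM). The remaining case was Igf1r, where replicate 2 was high at 10.5 TPM (9.30 to 9.49 TPM). Replicate 1 also differs in ribosomal RNA and in depth, and their part in these values was not tested.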

How the results depend on the processing

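Over 166 alternative values of a share, correlation or coefficient, 129 moved by less than the spread between libraries and 37 by more, mostly through gene length. A further 10 alternatives gave counts, which have no such spread and stayed within 1.5 times. With length taken over all exons, the share of mRNA was 7.47% for the 10 highest genes, 28.5% for 100 and 63.2% for 1000. With no length correction these were 4.29%, 18.5% and 54.1%. In the same order of settings the lists gave 2.42% and 1.003% (zona), 1.71% and 1.42% (subcortical complex), 1.27% and 0.870% (growth factors), 2.27% and 1.53% (chromatin), 0.502% and 0.505% (CCR4-NOT), 1.49% and 1.69% (CPE-controlled), 0.673% and 0.693% (translation factors) and 0.790% and 0.288% (mitochondrial). Over all exons the cell cycle list gave 1.28%. With no length correction the NLRP list gave 1.73%, storage 0.622%, ribosomal proteins 1.43%, respiratory chain 0.327%, glycolysis 0.419% and ubiquitin and chaperones 1.26%. The median pairwise Pearson r of 0.981 became 0.973 with a prior count of 0.5, and 0.977 to 0.989 when 1 library was left out. The biological coefficient of variation was 0.0919 to 0.231 in the same way. At 10 CPM or more the correlation of the ratio of replicate 1 was 0.36 with length and -0.61 with GC content. With TTTTAAT also counted, the share with an element was 61.6% at 100 to under 1000 TPM and 47.7% above, and in the 3′UTR of the longest transcript the latter was 43.9%. Of the other values, 16134 detected genes became 11867 at 1 CPM in all libraries, 23758 at 1 count, and 16199 by plain library size. That last setting and the check of the leading genes under other lengths were chosen after seeing the data. The deepest library was also the one that stood apart, so depth and its other differences cannot be told apart. No paired analysis was possible because the values describe 1 group and come from no test.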

Other observations

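Some abundant mRNAs lay outside the lists, and those named here were chosen after their values were seen. Tcl1, a coactivator of AKT kinase, was at 2788, 3686, 3597 and 3468 TPM in replicates 1 to 4. Rdx (radixin), which links actin to the membrane, was at 3023, 2696, 2769 and 2821 TPM, and Spin1, a reader of histone marks first described in oocytes, was at 3323, 2399, 2279 and 2504 TPM. Of the oligoadenylate synthetase family, Oas1e was at 2971 ± 216 TPM, Oas1d at 1939 ± 115 TPM and Oas1c at 1569 ± 59.9 TPM, and the 3 genes kept this order in every library. Cul1, the scaffold of the SCF ubiquitin ligases that use SKP1 and F-box proteins, was at 1888, 1452, 1536 and 1458 TPM. The importin Kpna2 was at 1686 ± 211 TPM. Gyg (glycogenin) and Bpgm, an enzyme of bisphosphoglycerate, were at 2076 ± 167 and 1785 ± 100 TPM, well above Gapdh (32.5 TPM). By mean CPM, with no length scaling, Gyg, Bpgm and Gapdh were at 1333, 1325 and 35.8.

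Long noncoding RNA made 1.18% to 1.29% of counts and pseudogenes 0.466% to 0.520%, with less spread between libraries than ribosomal RNA, which ran from 0.0505% in replicate 1 to 5.75% in replicate 4. The 2 mitochondrial ribosomal RNAs made 0.542% to 0.680% of counts. Protein-coding genes made 97.0%, 92.4%, 93.5% and 90.9% of counts in replicates 1 to 4, with replicate 1 the highest.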
